A study of Mus musculus with 9 samples.

Results

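Chemokine ligands are small secreted proteins that guide leukocytes, and the genes that encode them were examined in mouse lung squamous cell carcinoma grafts with and without knockdown of *Tmprss11b*. The members were the rows of the deposited gene table whose symbol is Ccl or Cxcl followed by a digit, or is *Cx3cl1* or *Xcl1*, which gave 35 of 19481 genes. Of these 35, 32 passed the filter on low counts and were among the 14725 genes tested, while *Cxcl15*, *Ccl28* and *Ccl19* were too low to test. The table listed no row for *Ccl26*, *Ccl27b*, *Ccl21b* and *Ccl21c*. *Ccl21a* and *Ccl27a* have near-identical copies elsewhere in the genome, so their counts are uncertain. In RefSeq the gene bodies of 13 ligands overlap another gene, among them *Ccl3* with *Ccl4*, *Cxcl16* with *Zmynd15*, *Cxcl10* and *Cxcl11* with *Art3*, and *Ccl5*, *Ccl6*, *Cxcl17* and *Ccl25* with other genes, so reads in the shared parts cannot be assigned with certainty.

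KLN205 is a DBA/2 mouse lung squamous carcinoma cell line, and all groups carried a doxycycline-inducible shRNA vector. Cells were grafted under the skin of female DBA/2 mice aged 6 to 8 weeks, which have an intact immune system and were given doxycycline in the drinking water, and tumors were resected at day 50. The 3 groups of 3 tumors carried a control shRNA (shControl) or one of the *Tmprss11b* shRNAs labelled sh2 and sh3. The comparison asks whether loss of this transmembrane serine protease alters the tumor and its immune infiltrate. RNA of whole tumors was sequenced, so tumor cell and host RNA were not separated, and fewer cells of a type and less RNA per cell cannot be told apart. The study described the knockdown tumors as smaller, so tumor size and shRNA cannot be told apart either.

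Chemokines act through G protein-coupled receptors, and each receptor marks the leukocytes that can follow its ligands. CXCR2 ligands draw neutrophils, CCR2 ligands draw monocytes, and the interferon-induced CXCR3 ligands draw effector T cells and natural killer (NK) cells. CCR4 ligands draw regulatory and type 2 helper T cells, whereas CXCL12, the CXCR4 ligand, comes largely from stromal cells. In tumors, ligands are made by the cancer cells as well as by macrophages, dendritic cells and fibroblasts.

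Many of these genes lie side by side. Of the Cxcl members, *Cxcl5*, *Cxcl3*, *Cxcl15*, *Cxcl1* and *Cxcl2* occupy chr5:90759298-90905938 and *Cxcl9*, *Cxcl10* and *Cxcl11* occupy chr5:92321331-92363296 (GRCm38.p6, RefSeq). Of the Ccl members, *Ccl2*, *Ccl7*, *Ccl11*, *Ccl12*, *Ccl8* and *Ccl1* lie in chr11:82035577-82179812, and *Ccl5*, *Ccl9*, *Ccl6*, *Ccl3* and *Ccl4* in chr11:83525778-83664683. *Ccl22*, *Cx3cl1* and *Ccl17* share chr8:94745684-94812038.

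The promoters of the neutrophil ligands *Cxcl1*, *Cxcl2* and *Cxcl3* and of the CXCR3 ligand *Cxcl10* are shown because they hold matches to the motifs searched and their genes are described in the results. RefSeq promoters were found for 25 members, 28 promoters in all, and the 250 bases before each start were searched on both strands for GGGNNTTTC (an NF-kappaB type motif), GAAANNGAA (an interferon response type motif) and TTCNNNGAA (a STAT type motif). Capitals mark matches of GGGNNTTTC on either strand in *Cxcl1*, *Cxcl2* and *Cxcl3*, and of GAAANNGAA in *Cxcl10*. The stretches end at the base before the annotated start.
Cxcl1, chr5:90891125-90891244, plus strand: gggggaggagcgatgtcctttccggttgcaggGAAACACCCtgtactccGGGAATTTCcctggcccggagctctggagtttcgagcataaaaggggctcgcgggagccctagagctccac
Cxcl2, chr5:90903779-90903898, plus strand: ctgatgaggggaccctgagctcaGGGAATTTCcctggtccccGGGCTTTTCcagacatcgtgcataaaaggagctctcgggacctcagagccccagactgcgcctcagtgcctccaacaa
Cxcl3, chr5:90785981-90786100, plus strand: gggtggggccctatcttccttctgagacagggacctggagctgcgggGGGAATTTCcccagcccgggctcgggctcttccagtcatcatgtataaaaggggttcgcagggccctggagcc
Cxcl10, chr5:92348890-92349129, minus strand: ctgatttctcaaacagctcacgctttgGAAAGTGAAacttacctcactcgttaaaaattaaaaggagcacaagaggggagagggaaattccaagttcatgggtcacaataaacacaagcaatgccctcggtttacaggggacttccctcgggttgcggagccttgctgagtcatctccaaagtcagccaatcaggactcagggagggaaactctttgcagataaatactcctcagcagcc

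The NF-kappaB type letters were present in 7 of 28 ligand promoters (*Ccl20*, *Ccl9*, *Cxcl1*, *Cxcl2*, *Cxcl3*, *Cxcl9* and *Xcl1*) and in 3.72% of 32851 mouse promoters. The interferon type letters were present in 6 (*Ccl1*, *Ccl19*, *Ccl3*, *Cxcl10*, *Cxcl14* and *Cxcl9*) against 7.13% of all promoters, and the STAT type letters in 2 (*Ccl17* and *Cxcl14*) against 7.02%. The window of *Cxcl15*, a neighbour of *Cxcl1*, held none of these letters, and *Cxcl5* was not among the promoters searched. A match is a string of letters, binding was not measured, and the 3 motifs can overlap.

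Total counts ranged from 20653219 to 24047784 per tumor, and 3 counts correspond to 0.123 to 0.152 CPM, counts scaled to library size with TMM factors and the unit of all levels given here unless TPM (which also corrects for gene length) is named. The targeted gene, listed as *Tmprss11bnl*, gave 18, 51 and 42 counts with shControl, 7, 2 and 5 with sh2, and 10, 4 and 5 with sh3, so no knockdown tumor reached the lowest control. The tumors expressed the epithelial markers *Epcam* and *Krt8* strongly, and of the squamous markers *Krt14* was present in all 9 whereas *Krt5* was at 2 to 104 counts in 8 tumors and at 2052 in control replicate 1. Some tumors stood apart. Summed macrophage markers were 1665 CPM in sh3 replicate 1 and 7818 CPM in sh3 replicate 2, against 2363 to 4649 CPM elsewhere. In sh2 replicate 2, summed T cell markers were 28.6 CPM and summed NK cell markers 6.86 CPM, the lowest of the 9 tumors in both lists. Control replicate 1 had 92.9 CPM of epidermis markers against at most 7.06 CPM elsewhere, and control replicate 3 had the most skeletal muscle RNA, 2445 CPM over 4 markers. For many but not all results, values without single tumors are given where leaving 1 out ended a call, turned a direction or moved a value strongly.

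The ligands together made up 2399 to 4879 TPM per tumor. *Ccl8*, a monocyte attractant made by macrophages, had the highest mean level at 734 ± 440 TPM (SD, n = 9), followed by *Cxcl16*, a membrane-bound CXCR6 ligand, at 629 ± 71.3 TPM. The ranges overlapped, since *Ccl8* ran from 109 to 1688 TPM and *Cxcl16* from 485 to 716 TPM. *Cxcl9*, *Cxcl14*, *Ccl6* and *Cxcl13* came next, with means of 277, 203, 177 and 118 TPM. *Ccl12*, *Ccl2*, *Ccl5* and *Cxcl10* completed the highest 10, between 84.6 and 95.1 TPM. The neighbours in this order overlapped across tumors, as the plot of TPM by gene shows.

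**Figure D1:**
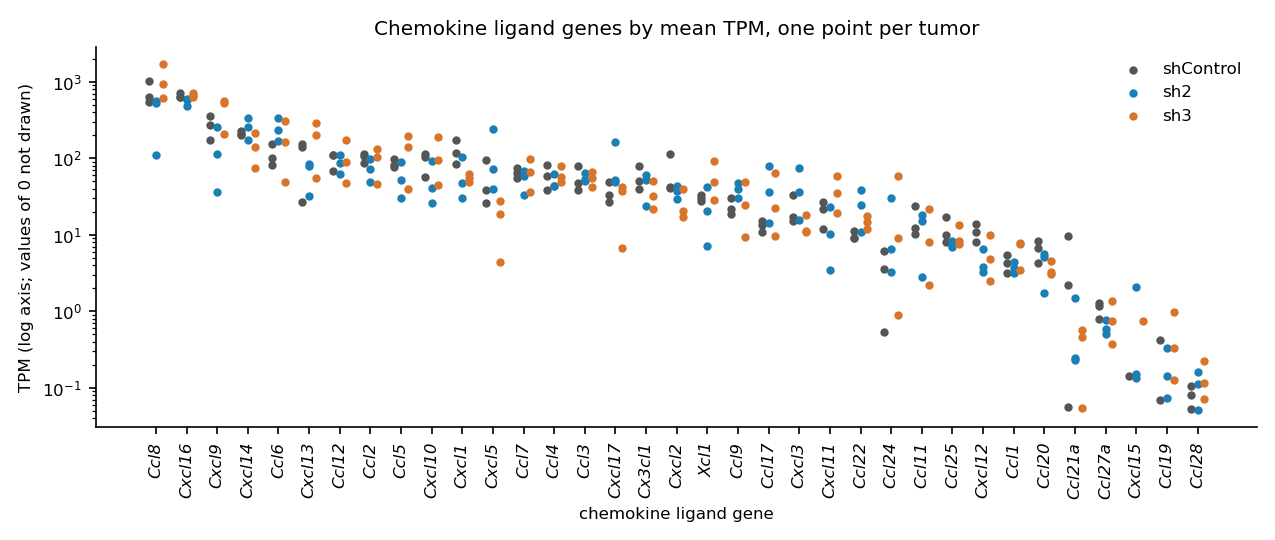
TPM of the 35 chemokine ligand genes (log axis) in order of the mean over 9 tumors, with 1 point per tumor colored by group. *Ccl8* has the highest mean (734 TPM) and spreads from 109 to 1688 TPM, whereas *Cxcl16* keeps within 485 to 716 TPM.

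Spread between tumors of the same group was wide for most ligands. The median within-group SD of log2 CPM was 0.72 over the 32 ligands tested and 0.28 over all 14725 genes tested. *Cxcl16* was the steadiest at 0.14, and *Ccl24*, a CCR3 ligand for eosinophils, the least steady at 1.81. Single tumors also set the extremes. The highest tumor was sh3 replicate 2 for 13 of the 32 ligands tested, among them *Ccl2*, *Ccl7*, *Ccl8*, *Ccl12*, *Ccl3*, *Ccl4*, *Ccl6* and *Ccl9*. The lowest was sh2 replicate 2 for 9, among them *Cxcl9*, *Cxcl10*, *Cxcl11*, *Ccl5* and *Xcl1*. How many of all genes tested had their extreme in these tumors was not counted, so a trait of the ligands and one of the whole tumor cannot be told apart here.

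**Figure D2:**
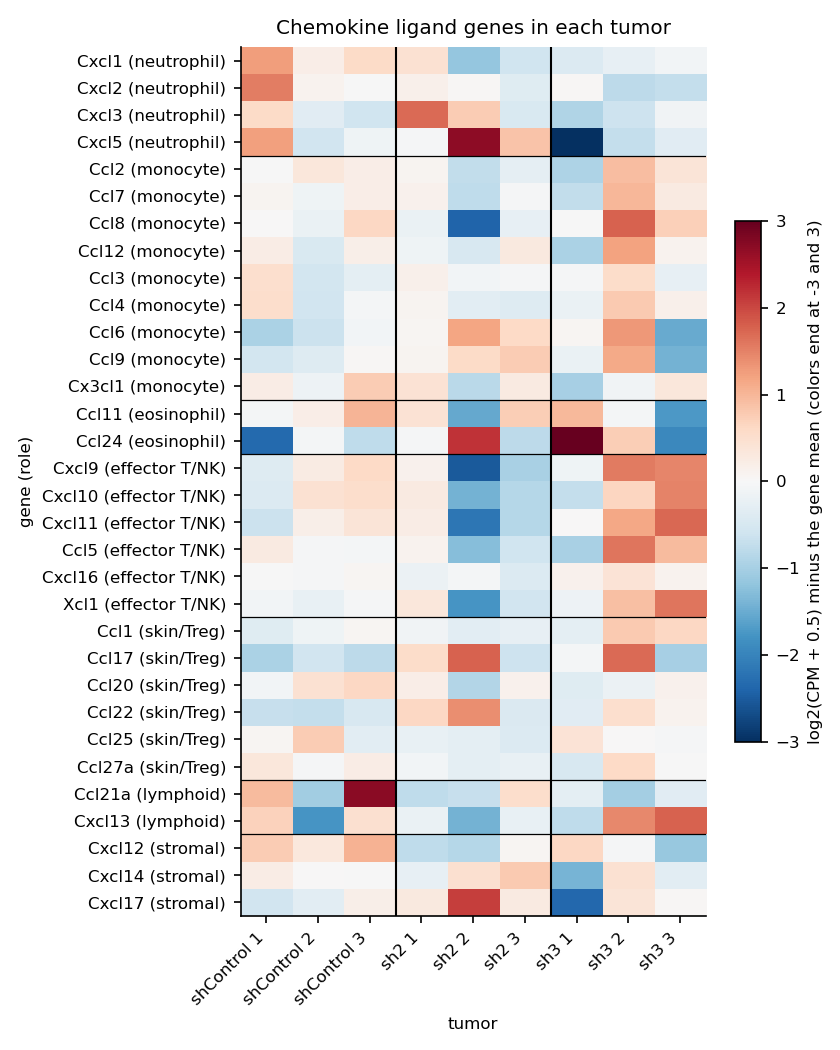
Level of each tested ligand in each tumor as log2(CPM + 0.5) minus the gene's mean over the 9 tumors, with genes grouped by the cell they recruit and tumors by group. In sh3 replicate 2, 8 of the 9 monocyte ligands are at their highest, and 5 of the 6 effector T cell ligands are at their lowest in sh2 replicate 2. The same was not counted over all genes.

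No ligand passed an FDR of 0.05 by the edgeR quasi-likelihood test in any of the 4 comparisons (sh2 or sh3 against control, the mean of both against control, and sh3 against sh2). Nor did any other gene (0% of 14725 in each). At an unadjusted P under 0.05 there were 4 ligands of 32 for sh2 (3.52% of all genes tested), namely *Ccl17* and *Ccl22* higher (1.64% of all genes) and *Cxcl1* and *Cxcl12* lower (1.87%). For sh3 there were 3 (6.63%), with *Cxcl1*, *Cxcl2* and *Ccl21a* lower (3.13%) and none higher (3.5%). For the mean of both there were 6 (4.09%), *Ccl17* and *Ccl22* higher (1.35%) and *Cxcl1*, *Cxcl2*, *Ccl21a* and *Cxcl12* lower (2.74%). For sh3 against sh2 there were 9 (7.18%), with *Ccl8*, *Cxcl9*, *Cxcl11*, *Ccl5*, *Cxcl16*, *Xcl1* and *Cxcl13* higher (3.52%) and *Cxcl3* and *Cxcl5* lower (3.66%). All genes with an unadjusted P under 0.05 numbered 518, 976, 602 and 1057. The DESeq2 Wald test called 2, 41, 9 and 48 genes at FDR 0.05 in these comparisons, and the edgeR likelihood ratio test 0, 8, 8 and 14, with no ligand among them. The comparisons that follow give sizes, and none holds after adjustment over all genes. The sh2 and sh3 comparisons share the 3 control tumors.

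The median log2 fold change of the 32 ligands was -0.29 for sh2, 0.24 for sh3 and 0.02 for the mean of both, against 0.01, 0.03 and 0.02 over all genes tested. For sh3 against sh2 it was 0.44 against 0.03. Higher values were found for 10 of the 32 ligands with sh2 (51.8% of all genes), 19 with sh3 (54.9%), 18 for the mean of both (55.0%) and 19 for sh3 against sh2 (54.9%). Without sh3 replicate 2 the median was -0.15 for sh3 and 0.02 for sh3 against sh2. The count of ligands with an unadjusted P under 0.05 also depended on single tumors. For sh2 it was 1 higher and 0 lower without sh2 replicate 2, and 4 higher and 2 lower without sh3 replicate 2. For sh3 it was 0 without control replicate 1 or sh3 replicate 2, but 4 higher and 2 lower without sh3 replicate 1 and 4 higher and 0 lower without sh3 replicate 3. For the mean of both it was 0 higher and 1 lower without control replicate 1, and 5 higher and 4 lower without sh3 replicate 3. In these fits for sh2, in order, all genes with such a P numbered 163 of 14953 and 566 of 14930 (518 of 14725 with all tumors). For sh3 they numbered 563 of 14908, 1219 of 14930, 2154 of 14911 and 903 of 14949 (976 of 14725). For the mean of both they numbered 444 of 14908 and 588 of 14949 (602 of 14725).

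**Figure D3:**
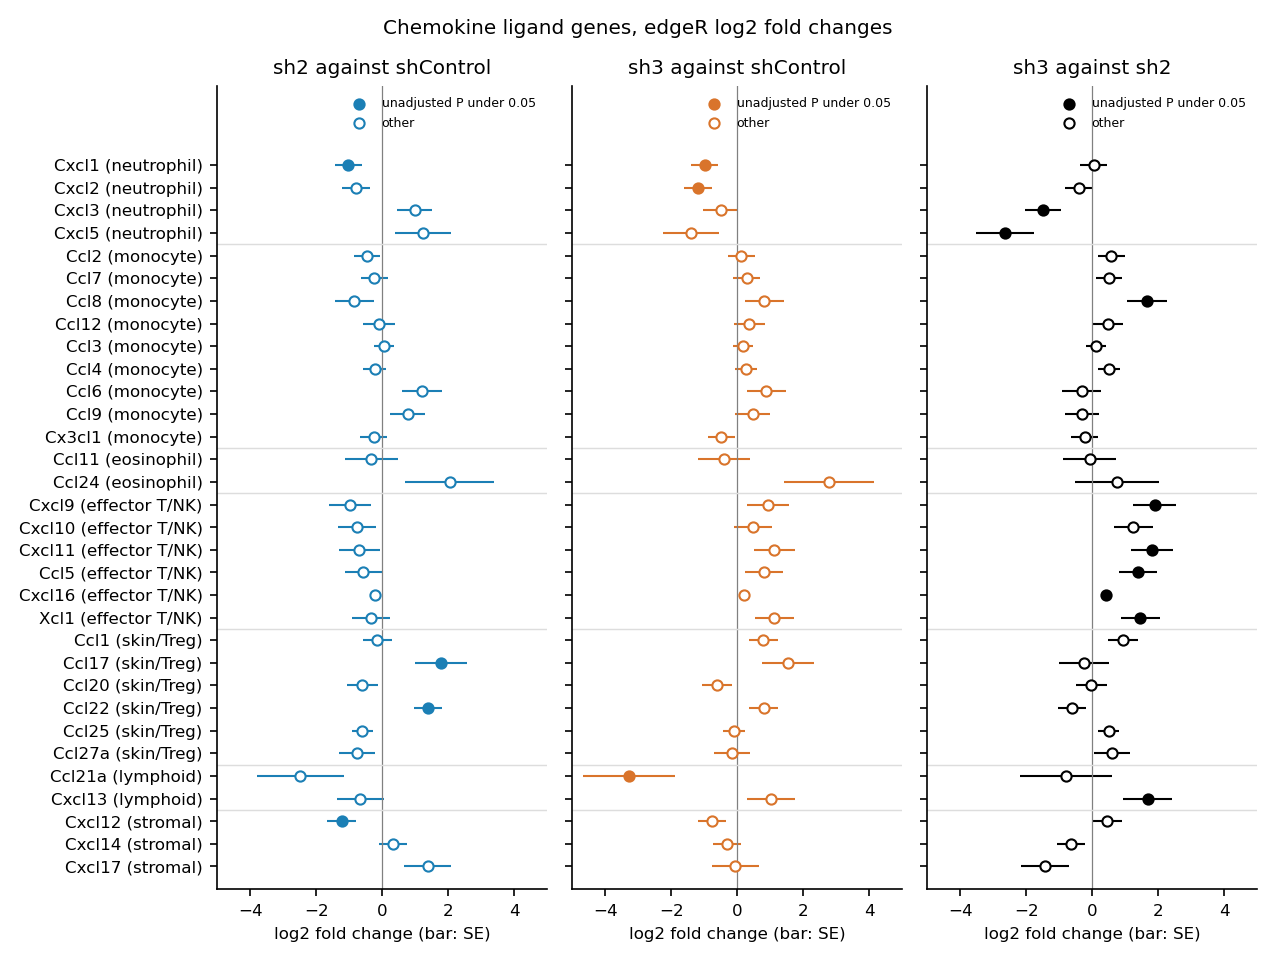
edgeR log2 fold changes (points) with standard errors (bars) of the 32 ligands tested, grouped by role, for each shRNA against control and for sh3 against sh2. Filled points have an unadjusted P under 0.05, of which there are 4, 3 and 9, and none passes FDR 0.05.

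Among the neutrophil-recruiting CXCR2 ligands, *Cxcl1* and *Cxcl2* were lower in group mean with both shRNAs, whereas *Cxcl3* and *Cxcl5* were higher in group mean with sh2 and lower with sh3. *Cxcl1*, the mouse counterpart of the GRO chemokines, stood at 71.0, 34.1 and 44.4 CPM in control, 40.8, 12.9 and 19.4 CPM with sh2, and 22.1, 25.0 and 28.1 CPM with sh3. Every sh3 tumor was below every control tumor, and for sh2 replicate 1 overlapped the controls. *Cxcl1* was the only ligand with all sh3 tumors below control (5.44% of all genes). The log2 fold change was -1.03 (SE 0.41, edgeR adjusted P = 0.999) for sh2 and -0.99 (SE 0.41, edgeR adjusted P = 0.753) for sh3. For the mean of both it was -1.01 (SE 0.34, edgeR adjusted P = 0.982), and without control replicate 1, which had the highest *Cxcl1*, it was -0.67 with P over 0.05. For sh2 alone the P was over 0.05 in a fit of the sh2 and control tumors alone and without control replicate 1 (-0.68), sh2 replicate 2 (-0.71) or sh2 replicate 3 (-0.88). For sh3 alone this was so when control replicate 1 (-0.66), control replicate 3 (-1.08) or any single sh3 tumor was left out.

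*Cxcl2*, which shares the CXCR2 receptor, stood at 52.3, 19.3 and 17.7 CPM in control, 19.8, 18.3 and 13.6 CPM with sh2, and 18.3, 10.1 and 10.6 CPM with sh3. Control replicate 1, the tumor with the most epidermis marker RNA, was high and the other tumors overlapped. For sh2 the log2 fold change was -0.79 (SE 0.43, edgeR adjusted P = 0.999), with an unadjusted P over 0.05. The log2 fold change was -1.19 (SE 0.43, edgeR adjusted P = 0.753) for sh3 and -0.99 for the mean of both (SE 0.36, edgeR adjusted P = 0.982). Without control replicate 1 these were -0.52 and -0.31, both with P over 0.05. The sh3 value also had P over 0.05 without sh3 replicate 2 (-1.04) or sh3 replicate 3 (-1.08).

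*Cxcl3* was at 14.4, 7.45 and 6.18 CPM in control, 32.0, 16.7 and 6.84 CPM with sh2, and 4.9, 6.0 and 8.85 CPM with sh3. *Cxcl5*, an epithelial CXCR2 ligand, was at 66.8, 18.5 and 25.6 CPM in control, 27.1, 183 and 51.1 CPM with sh2, and 3.10, 16.8 and 22 CPM with sh3. For *Cxcl5* no sh3 tumor reached the lowest sh2 tumor, the only such ligand (4.62% of all genes), and sh2 replicate 2 was far above all others. Between sh3 and sh2, the log2 difference was -1.49 (SE 0.54, edgeR adjusted P = 0.673) for *Cxcl3* and -2.64 (SE 0.89, edgeR adjusted P = 0.673) for *Cxcl5*. Without sh2 replicate 1 it was -0.84 for *Cxcl3*, and without sh2 replicate 2 it was -1.50 for *Cxcl5*, both with P over 0.05. For *Cxcl3* the P was also over 0.05 with the replicate block and without sh3 replicate 1 (-1.31) or sh3 replicate 2 (-1.43). *Cxcl15* was at 43 counts in sh2 replicate 1, at 17 in sh3 replicate 2 and at 0 to 3 in the other tumors.

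*Cxcr2* itself was lower in sh3 than in sh2, with a log2 difference of -1.45 (SE 0.49, edgeR adjusted P = 0.673), and its levels were 15.2, 23.6 and 7.68 CPM with sh2 against 4.44, 8.89 and 3.64 CPM with sh3. None of the 6 neutrophil markers tested had P under 0.05 in any comparison, and their sum ran from 84.8 to 165 CPM in control, 94.8 to 161 CPM with sh2 and 52.2 to 149 CPM with sh3. The *Cxcr2* difference was -1.05 with P over 0.05 without sh2 replicate 2. Summed epithelial markers were highest in sh2 replicate 2, at 7223 CPM, the tumor with the highest *Cxcl5*, and 3085 to 5611 CPM elsewhere. The part of neutrophil number and of epithelial RNA in these values was not tested. The platelet chemokine *Ppbp*, also a CXCR2 ligand but outside the symbol rule, was at 1.75, 0.952 and 1.64 CPM in control, 4.17, 8.55 and 2.63 CPM with sh2, and 0.694, 2.44 and 1.20 CPM with sh3. Its log2 fold change was 1.82 for sh2 (SE 0.58, edgeR adjusted P = 0.999) and -1.82 for sh3 against sh2 (SE 0.58, edgeR adjusted P = 0.673). Without sh2 replicate 2 these were 1.24 and -1.26, both with P over 0.05.

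The 9 monocyte and macrophage ligands gave no unadjusted P under 0.05 against control. Of them, 3 were higher with sh2 (51.8% of all genes) and 8 with sh3 (54.9%), but 1 was higher with sh3 when sh3 replicate 2 was left out, and 5 with sh2 when sh2 replicate 2 or control replicate 1 was. *Ccl8* was at 137, 120 and 210 CPM in control, 119, 25.4 and 115 CPM with sh2, and 135, 466 and 225 CPM with sh3. All sh2 tumors lay below all control tumors by a narrow margin and below all sh3 tumors. The log2 difference of sh3 from sh2 was 1.67 (SE 0.60, edgeR adjusted P = 0.673), and 1.06 with P over 0.05 without sh3 replicate 2. *Ccl6* and *Ccl9*, neighbouring CCR1 ligands made by myeloid cells, were higher in every sh2 tumor than in every control tumor. For *Ccl6* the levels were 49.8, 61.1 and 90.1 CPM in control, 99.6, 218 and 145 CPM with sh2, and 101, 238 and 33.4 CPM with sh3. The sh3 tumors lay on both sides of the controls. The sh2 log2 fold change was 1.20 (SE 0.60, edgeR adjusted P = 0.999) for *Ccl6* and 0.78 (SE 0.53, edgeR adjusted P = 0.999) for *Ccl9*, each with an unadjusted P over 0.05. For sh3 the value of *Ccl9* was 0.48, and -0.42 without sh3 replicate 2. In all, 4 ligands were higher in every sh2 tumor than in every control tumor (*Ccl6*, *Ccl9*, *Ccl22* and *Cxcl17*, 5.56% of all genes), and 4 were lower (*Ccl8*, *Cxcl16*, *Ccl27a* and *Cxcl12*, 5.83%). *Ccl2*, the main CCR2 ligand, *Ccl7* and *Ccl12*, both CCR2 ligands, and *Ccl3* and *Ccl4*, the macrophage inflammatory proteins, differed from control by at most 0.46 on the log2 scale with either shRNA. Macrophage markers also gave 0 of 10 with P under 0.05, and their sum was highest in sh3 replicate 2, the tumor with the highest level of 8 of these 9 ligands, and lowest in sh3 replicate 1.

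Of the genes at chr11:82035577-82179812, 0 of 6 were above control with sh2 (51.8% of all genes) and 5 of 6 with sh3 (54.9%). Here sh3 replicate 2 was the highest tumor for *Ccl2*, *Ccl7*, *Ccl8*, *Ccl12* and *Ccl1*, and without it 2 of 6 were above control with sh3. For sh2, 2 of 6 were above control when sh2 replicate 2 or control replicate 3 was left out. Of the 5 at chr11:83525778-83664683, 3 were above control with sh2 and all 5 with sh3, but 1 with sh3 without sh3 replicate 2. The eosinophil ligands *Ccl11* and *Ccl24* gave no P under 0.05, and *Ccl24* ran from 0.556 to 31.8 CPM within the sh3 tumors alone. Of the 4 eosinophil and mast cell markers tested, 1 was higher with sh2 at an unadjusted P under 0.05 (*Siglecf*, an eosinophil lectin) and 2 were lower (the mast cell proteases *Cpa3* and *Mcpt4*), against 1.64% and 1.87% of all genes. Their log2 fold changes were 1.40, -0.93 and -1.96 (edgeR adjusted P = 0.999 for each). *Siglecf* was at 0.62 with P over 0.05 without sh2 replicate 2. The summed markers were 12.2 to 16.8 CPM with sh2 and 12.4 to 21.7 CPM in control.

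Of the 6 ligands for effector T cells, NK cells and cross-presenting dendritic cells, 0 were higher than control with sh2 (51.8% of all genes) and 6 with sh3 (54.9%). This became 1 with sh2 when sh2 replicate 2 was left out, and 5 with sh3 when sh3 replicate 3 was left out. Their median log2 fold change was -0.63 for sh2 and 0.88 for sh3, with no single ligand at P under 0.05 against control. The sh2 median was -0.27 without sh2 replicate 2, and the sh3 median was 0.60 without sh3 replicate 2. Between sh3 and sh2 the median was 1.42, and 5 of the 6 were higher at an unadjusted P under 0.05 (3.52% of all genes). When sh2 replicate 2 was left out the median was 1.05 with 3 such ligands. There were also 3 without any 1 control tumor and 1 without sh3 replicate 2 or sh3 replicate 3. There were 0 without sh2 replicate 3 and 6 without sh2 replicate 1 or sh3 replicate 1. In the last 3 fits, in order, all genes with such a P numbered 669 of 14924, 1246 of 14936 and 2832 of 14911. With all tumors they numbered 1057 of 14725. *Cxcl9*, an interferon-gamma-induced CXCR3 ligand, was at 213, 331 and 425 CPM in control, 306, 47.8 and 141 CPM with sh2, and 253, 824 and 774 CPM with sh3. The sh2 and sh3 tumors overlapped because sh2 replicate 1 was above sh3 replicate 1. The log2 difference was 1.9 (SE 0.65, edgeR adjusted P = 0.673). The unadjusted P was over 0.05 without sh2 replicate 3 (1.77), sh3 replicate 2 (1.64) or sh3 replicate 3 (1.67).

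*Cxcl11*, on the same receptor, was at 8.26, 14.9 and 17.3 CPM in control, 15.3, 2.56 and 7.09 CPM with sh2, and 13.2, 30.0 and 44.7 CPM with sh3, with a log2 difference between the shRNAs of 1.81 (SE 0.64, edgeR adjusted P = 0.673). *Cxcl10*, the third of this cluster, was at 26.4, 48.6 and 51.1 CPM in control, 42.3, 12.9 and 19.1 CPM with sh2, and 21.1, 55.5 and 99.8 CPM with sh3. Its log2 difference was 1.25 (edgeR adjusted P = 0.673), with an unadjusted P over 0.05. Against control, its sh3 log2 fold change of 0.48 was -0.16 without sh3 replicate 3. For all 3 genes the sh2 and sh3 ranges overlapped through sh2 replicate 1 and sh3 replicate 1.

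*Ccl5*, secreted by T cells and NK cells among others, was at 22.2, 17.6 and 17.6 CPM in control, 19.5, 7.20 and 11.9 CPM with sh2, and 9.02, 56.6 and 35.4 CPM with sh3. *Xcl1*, the XCR1 ligand of NK cells and CD8 T cells, was at 6.43, 5.84 and 6.63 CPM in control, 8.89, 1.64 and 4.42 CPM with sh2, and 6.10, 13.2 and 22 CPM with sh3. Both overlapped between the shRNAs. The log2 difference was 1.38 for *Ccl5* (SE 0.58, edgeR adjusted P = 0.673) and 1.46 for *Xcl1* (SE 0.60, edgeR adjusted P = 0.673), and each kept P under 0.05 in 7 of 16 alternative fits. Without sh3 replicate 2 the difference was 0.79 for *Ccl5*, and without sh3 replicate 3 it was 0.92 for *Xcl1*. For *Cxcl11* it was 1.34 without sh3 replicate 3 and 1.68 without sh2 replicate 3, with P over 0.05.

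*Cxcl16* was at 671, 663 and 709 CPM in control, 604, 650 and 515 CPM with sh2, and 740, 895 and 725 CPM with sh3. The 3 groups did not overlap, with sh2 lowest and sh3 highest. How many of all genes had 3 such separate groups was not counted. The log2 fold change was -0.21 for sh2 (SE 0.15, edgeR adjusted P = 0.999) and 0.21 for sh3 (SE 0.15, edgeR adjusted P = 0.823). The log2 difference between the shRNAs was 0.42 (SE 0.15, edgeR adjusted P = 0.673), and 0.31 with an unadjusted P over 0.05 without sh2 replicate 3 or sh3 replicate 2. The P was also over 0.05 in a fit of the sh2 and sh3 tumors alone. Ligands with every sh3 tumor above every control tumor were *Cxcl16* and *Ccl22* (6.78% of all genes), and those with every sh3 tumor above every sh2 tumor were *Ccl8*, *Cxcl16* and *Ccl25* (5.51%).

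**Figure D4:**
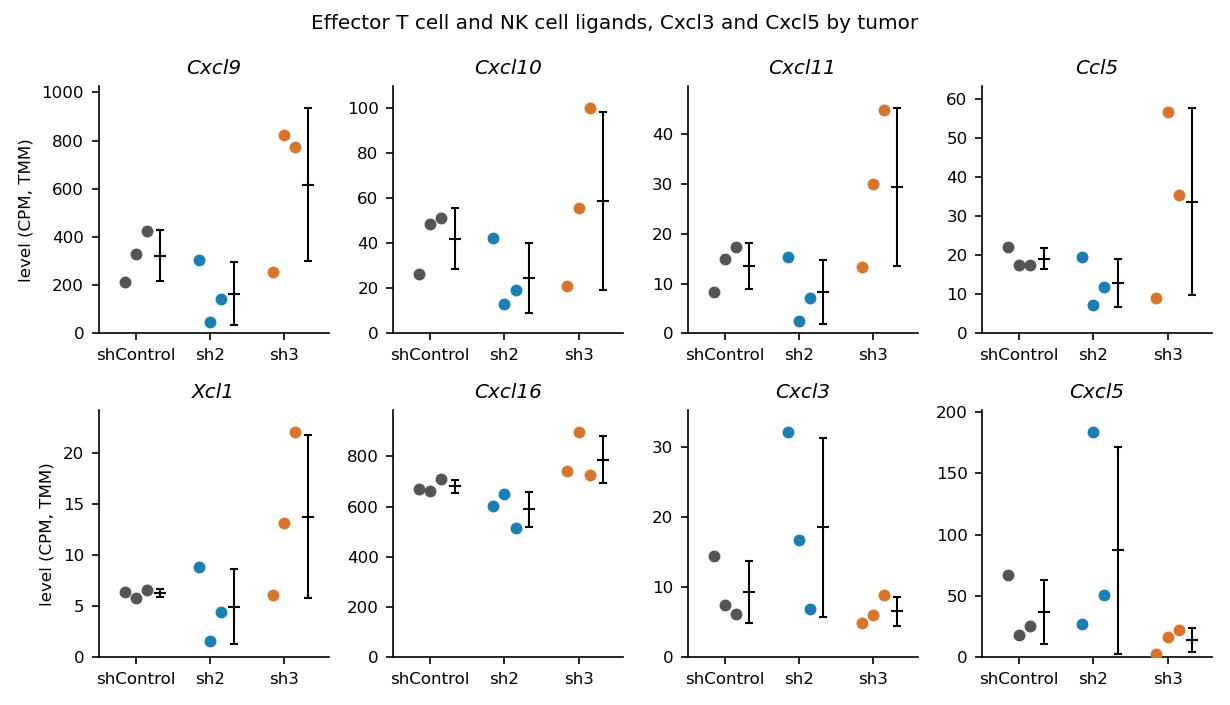
Level (CPM) of 6 effector T cell and NK cell ligands and of *Cxcl3* and *Cxcl5* in each tumor (points), with the group mean and SD (bar, n = 3). For *Cxcl16* the groups do not overlap (not counted over all genes), and *Cxcl9* reaches 774 and 824 CPM in 2 sh3 tumors against 47.8 to 306 CPM with sh2.

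Some T cell and NK cell markers also differed between the shRNAs at an unadjusted P. In sh3 against sh2, 3 of 9 T cell markers (*Cd3d*, *Cd2* and *Cd5*) and 3 of 5 NK cell markers (*Ncr1*, *Klrb1c* and *Gzma*) were higher with an unadjusted P under 0.05 (3.52% of all genes), each with an edgeR adjusted P of 0.673. With 1 tumor left out these ranged from 0 (without sh3 replicate 3) to 8 (without sh2 replicate 1) of the T cell markers and from 0 (without sh2 replicate 2, sh2 replicate 3, sh3 replicate 2 or sh3 replicate 3) to 5 (without sh2 replicate 1) of the NK cell markers. All genes with such a P, in either direction, numbered 1057 of 14725 with all tumors. They numbered 1246 of 14936 without sh2 replicate 1, 667 of 14953 without sh2 replicate 2 and 669 of 14924 without sh2 replicate 3. Without sh3 replicate 2 they numbered 1079 of 14930, and without sh3 replicate 3 they numbered 987 of 14949. Of the other lists, 0 of 10 macrophage, 0 of 6 neutrophil, 0 of 5 dendritic cell and 0 of 4 B cell markers had P under 0.05 in this comparison. Lower at P under 0.05 were 2 of 6 fibroblast, 1 of 5 epithelial and 1 of 4 eosinophil and mast cell markers (3.66% of all genes). Summed T cell markers were 93.8 to 118 CPM in control, 28.6 to 126 CPM with sh2 and 69.7 to 205 CPM with sh3. *Ifng*, the main inducer of the CXCR3 ligands, was at 1.66, 2.19 and 3.40 CPM in control, 1.31, 0.483 and 0.918 CPM with sh2, and 1.99, 4.42 and 4.49 CPM with sh3. All sh2 tumors were below all control and all sh3 tumors, and the log2 fold change was -1.41 for sh2 against control (SE 0.50, edgeR adjusted P = 0.999) and 2.00 for sh3 against sh2 (SE 0.50, edgeR adjusted P = 0.673). The value for sh2 was -1.11 without sh2 replicate 2 and -1.08 without control replicate 3, both with P over 0.05. *Ifng* was the only 1 of the 4 chemokine-inducing cytokines tested with P under 0.05 in these comparisons. Over those 4 the median log2 difference of sh3 from sh2 was -0.25. The receptor *Cxcr3* was at 4.34, 3.52 and 6.76 CPM in control, 8.93, 1.45 and 3.80 CPM with sh2, and 14.7, 7.62 and 12.8 CPM with sh3, without P under 0.05 against control. The part of cell numbers in the ligand values was not tested.

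Leaving out 1 tumor changed how many ligands differed between the shRNAs. The 7 higher and 2 lower ligands became 1 higher and 4 lower without sh3 replicate 2, 12 higher and 1 lower without sh3 replicate 1, and 1 higher and 3 lower without sh2 replicate 3. The counts were 4 higher and 1 lower without sh2 replicate 2, and 2 higher and 2 lower without sh3 replicate 3. All genes with an unadjusted P under 0.05 in this comparison, in either direction, numbered 1057 of 14725 with all tumors. In these fits, in order, they numbered 1079 of 14930, 2832 of 14911, 669 of 14924, 667 of 14953 and 987 of 14949. The rise without sh3 replicate 1 was thus not limited to the ligands.

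The CCR4 ligands *Ccl22* and *Ccl17*, products of dendritic cells and macrophages and neighbours on chromosome 8, were higher than control for the mean of both shRNAs at an unadjusted P under 0.05. *Ccl22* was at 7.07, 7.04 and 8.31 CPM in control, 18.5, 32.1 and 8.64 CPM with sh2, and 9.15, 17.1 and 12.8 CPM with sh3. All 6 knockdown tumors lay above all 3 controls, by a narrow margin in sh2 replicate 3, and no other ligand had this (1.21% of all genes higher in all 6, 0.958% lower, with no ligand lower). The log2 fold change was 1.40 for sh2 (SE 0.43, edgeR adjusted P = 0.999), 0.80 for sh3 (SE 0.43, edgeR adjusted P = 0.760) and 1.1 for the mean of both (SE 0.38, edgeR adjusted P = 0.982). The sh2 value had P under 0.05 in all 16 alternative fits, with a log2 fold change of 0.87 without sh2 replicate 2. The value for the mean of both was 1.05 without control replicate 1 and 1.06 without control replicate 2, both with P over 0.05.

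*Ccl17* was at 2.43, 3.31 and 2.78 CPM in control, 7.75, 18.7 and 3.17 CPM with sh2, and 4.95, 17.8 and 2.35 CPM with sh3. Most of the difference lay in sh2 replicate 2 and sh3 replicate 2, and the groups overlapped. The log2 fold change was 1.80 for sh2 (SE 0.79, edgeR adjusted P = 0.999) and 1.68 for the mean of both (SE 0.72, edgeR adjusted P = 0.982). For sh2 it was 0.95 without sh2 replicate 2, and for the mean 1.08 without sh3 replicate 2, both with P over 0.05. The P was also over 0.05 for sh2 without any 1 control tumor, sh2 replicate 1 or sh3 replicate 1, and for the mean without any 1 control tumor, sh2 replicate 1 or sh2 replicate 2. The receptor *Ccr4* was at 0.185 to 0.573 CPM in the 9 tumors, and none of the 5 dendritic cell markers had P under 0.05. The other ligands of this group, *Ccl1*, *Ccl20*, *Ccl25* and *Ccl27a*, gave no P under 0.05.

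**Figure D5:**
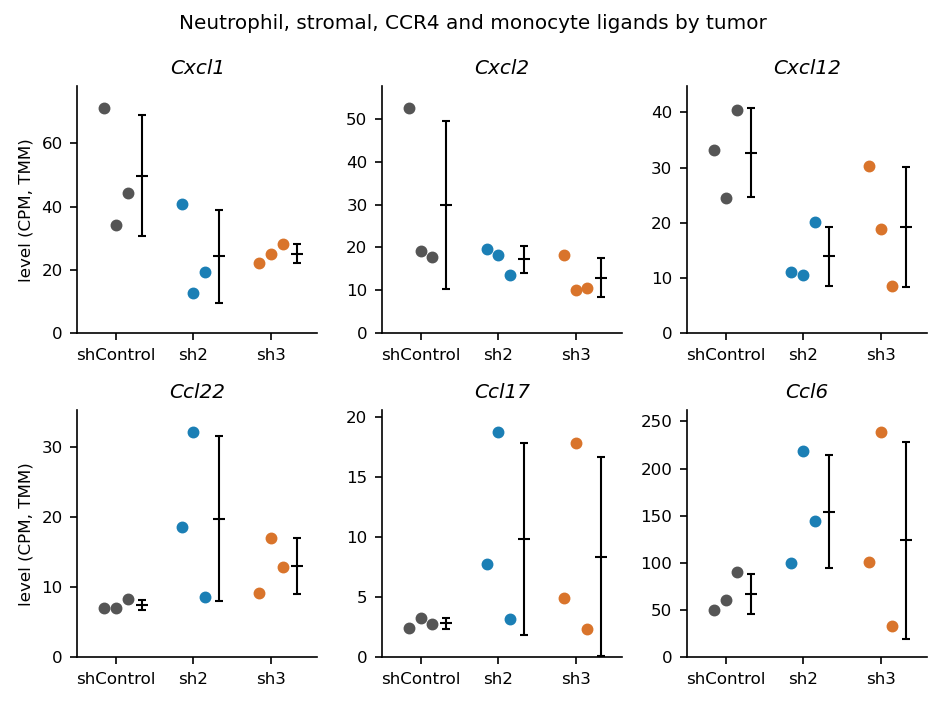
Level (CPM) of *Cxcl1*, *Cxcl2*, *Cxcl12*, *Ccl22*, *Ccl17* and *Ccl6* in each tumor (points), with the group mean and SD (bar, n = 3). All 6 knockdown tumors lie above the controls for *Ccl22* (8.64 CPM or more against at most 8.31 CPM), and control replicate 1 stands above the rest for *Cxcl2*.

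*Cxcl13*, the CXCR5 ligand that organises B cell follicles, was at 75.4, 13.4 and 66.1 CPM in control, 40.9, 17.2 and 39.9 CPM with sh2, and 27.6, 128 and 160 CPM with sh3. The spread within groups was wide, and the log2 difference of sh3 from sh2 was 1.68 (SE 0.74, edgeR adjusted P = 0.673), with P under 0.05 in 7 of 16 alternative fits. Its receptor *Cxcr5* was 2.11 higher on the log2 scale in sh3 than in sh2 (SE 0.84, edgeR adjusted P = 0.673). In that comparison 0 of 4 B cell markers had an unadjusted P under 0.05. Against control, the B cell markers *Ms4a1* and *Cd79a*, 2 of 4 in the list, were higher with sh3 at such a P (3.5% of all genes). *Cxcl13* and *Cxcr5* had no P under 0.05 in sh3 against control. Between the shRNAs, *Cxcr5* had P over 0.05 without control replicate 1, sh2 replicate 3, sh3 replicate 2 or sh3 replicate 3. The B cell markers with sh3 against control numbered 0 of 4 without control replicate 1, control replicate 2, sh3 replicate 1 or sh3 replicate 2. In those fits, in order, all genes with such a P, in either direction, numbered 563 of 14908, 784 of 14930, 2154 of 14911 and 1219 of 14930. With all tumors they numbered 976 of 14725. *Ccl21a*, a CCR7 ligand of lymphatic vessels and lymphoid stroma, was at 39, 1 and 166 counts in control, 4, 4 and 27 with sh2, and 9, 1 and 9 with sh3. Control replicate 3, the tumor rich in muscle RNA, held most of these counts, and the sh3 log2 fold change of -3.28 (SE 1.39, edgeR adjusted P = 0.753) was -1.55 without it. For the mean of both, -2.88 (SE 1.07, edgeR adjusted P = 0.982), it was -1.15 without it. Both had P over 0.05 without it, as did the sh3 value without control replicate 1, sh2 replicate 2 or any 1 sh3 tumor and the mean without sh3 replicate 2.

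Of the stromal ligands, *Cxcl12*, the CXCR4 ligand, was at 33.3, 24.4 and 40.4 CPM in control, 11.2, 10.5 and 20.1 CPM with sh2, and 30.4, 18.9 and 8.51 CPM with sh3. All sh2 tumors were below all controls, whereas sh3 replicate 1 lay among the controls. The log2 fold change was -1.23 for sh2 (SE 0.44, edgeR adjusted P = 0.999), -0.76 for sh3 (SE 0.44, edgeR adjusted P = 0.761) and -1.0 for the mean of both (SE 0.37, edgeR adjusted P = 0.982). For the mean it was -0.82 without control replicate 3 and -0.99 without control replicate 1, with P over 0.05. For sh2 it was -1.05 without control replicate 3, -1.1 without sh2 replicate 1 and -1.06 without sh2 replicate 2, also with P over 0.05. Of 6 fibroblast markers, 4 were lower at P under 0.05 with sh3 and for the mean of both (*Col1a1*, *Col1a2*, *Col3a1* and *Lum*, against 3.13% and 2.74% of all genes), and none with sh2. With 1 tumor left out, 2 (without control replicate 1) to 5 were lower with sh3, and 1 (without control replicate 1) to 6 (without control replicate 2) for the mean of both. Without control replicate 1, all genes with such a P, in either direction, numbered 563 of 14908 with sh3 and 444 of 14908 for the mean. Without control replicate 2 they numbered 653 of 14930 for the mean. With all tumors they numbered 976 and 602 of 14725. Summed fibroblast markers were 2992 to 5312 CPM in control, 2335 to 3915 CPM with sh2 and 1240 to 2200 CPM with sh3, and their part in the *Cxcl12* values was not tested.

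*Cxcl14*, an epithelial chemokine, and *Cxcl17*, a mucosal chemokine, gave no P under 0.05. *Cxcl17* was at 8.73, 10.6 and 15.1 CPM in control, 16.3, 57.2 and 16.1 CPM with sh2, and 2.17, 17.5 and 13.6 CPM with sh3. Every sh2 tumor was above every control, with sh2 replicate 2 far higher, and the log2 fold change was 1.38 (SE 0.72, edgeR adjusted P = 0.999). Without sh2 replicate 2 it was 0.51. Summed epithelial markers were 3420 to 7223 CPM with sh2, highest in the same tumor, and 3085 to 4392 CPM in control, and their part in these values was not tested.

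Of the 18 chemokine receptor genes listed, 15 were tested, and none had P under 0.05 against control. *Cxcr5* and *Cxcr2*, described above, were the only receptors with P under 0.05 between the shRNAs. Of the 4 atypical receptors, which take up chemokines without signalling to migration, 3 were tested and none had P under 0.05.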

How the data were processed

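RNA of 9 KLN205 tumors (3 per group, different mice, groups from the labels) was analysed. The authors aligned reads with STAR 2.5.3a to mm10 and counted them with featureCounts, per the labels and the study's methods. The deposited table holds raw counts for 19481 genes, and the authors' normalized signal, CPM. Within each tumor the deposited CPM was proportional to the counts, and how its scale was set was not checked. The CPM levels given here were computed from the counts with TMM factors. The authors also deposited TPM, used here only to compare levels between genes. Handling of multi-mapping reads and strand are not given in the sources used here. The 10 columns of the authors' own comparisons (fold changes and p-values) were not used.

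Counts were fitted over all 9 tumors with edgeR 4.0.16 (TMM, filterByExpr, robust quasi-likelihood test, R 4.3.3), with Benjamini-Hochberg adjustment (FDR) over the 14725 genes tested. The script was tested on simulated data. P-values are two-sided. Alternatives used DESeq2 1.42.0, other filters and scaling, a replicate block, and each tumor left out.

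The members and gene lists were chosen with earlier results of these data known. Named genes were ligands with an unadjusted P under 0.05 in any comparison or non-overlapping with both shRNAs, the 10 highest by mean TPM, ligands the paper names, and, of other lists, genes with P under 0.05 and the receptors concerned. Some further genes (Ccl11, Ccl24, Ccl25, Ccl27a, Cxcl17) were named after their values were seen. Motif letters were also chosen with the promoters known. Sequences and coordinates come from RefSeq on GRCm38.p6. Intervals from counts and the floor of 3 counts cover counting error only, as no molecular identifiers separate PCR copies from molecules.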

Additional observations from a re-analysis of the deposited data

Results flagged for a closer look

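Cxcl16 lay on opposite sides of control with the different shRNAs. All 3 sh2 tumors (515 to 650 CPM) were below the control mean of 681 CPM and all 3 sh3 tumors (725 to 895 CPM) were above it. This rule was applied to the ligands tested only, and how many of all genes met it was not counted. The difference between sh3 and sh2 was 0.42 on the log2 scale, and edgeR gave it an adjusted P of 0.673 (unadjusted P under 0.05), so it did not hold after adjustment over all genes.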

How the results depend on the processing

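No ligand passed an FDR of 0.05 in edgeR or in any alternative that was fitted, with 1 tumor left out, other filters, other scaling, the likelihood ratio test, DESeq2 or only the groups compared (the last gave no value for the mean of both shRNAs). The medians of the ligands with 1 tumor left out ranged from -0.49 to -0.06 for sh2, from -0.15 to 0.50 for sh3, from -0.15 to 0.17 for the mean of both and from 0.02 to 0.45 for sh3 against sh2, and the lowest values for sh3 (-0.15) and for sh3 against sh2 (0.021) came from leaving out sh3 replicate 2. For the 22 ligand results that had an unadjusted P under 0.05 as reported, 343 pairs with an alternative were computed, of which 261 kept P under 0.05 and 0 changed sign. Results over that threshold were not in this count, and some changed sign with 1 tumor left out, such as Ccl9 with sh3 (0.48, and -0.42 without sh3 replicate 2). The 22 results were chosen by P in the same tumors, and the alternatives refit the same counts. Their lack of sign changes is therefore not independent support. Same-numbered tumors did not deviate together (mean correlation -0.0992 over 9 pairs, 0.0519 over 18 pairs of different numbers), so no pairing by number was seen. With so few tumors this cannot settle whether the numbers mark a shared batch. With the replicate number as a block, 0 ligands were called in each comparison, and 6 rather than 9 ligands had P under 0.05 for sh3 against sh2. All genes with such a P then numbered 741 rather than 1057 of 14725 in that comparison. With 3 tumors a group and this spread, small differences were not detectable, and large ones did not pass FDR 0.05 either. Examples are the log2 values of -2.64 for Cxcl5 (sh3 against sh2) and -3.28 for Ccl21a (sh3 against control). The absence of calls therefore does not exclude large differences.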
